A study of Mus musculus with 4 samples.

Results

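The 9 genes described here encode transcription factors that set up or mark the lineages of innate lymphoid cells (ILCs): Rora, Gata3, Tbx21, Eomes, Maf, Nfil3, Tcf7, Tox and Bcl11b. They were taken by gene symbol from a table of 53379 genes, in which each of the 9 had 1 row. The RNA came from group 3 ILCs (ILC3s) of the small intestine in mixed chimeras, and 2 libraries were made from Brg1-sufficient donor cells (the controls) and 2 from donor cells lacking Brg1 (Brg1-deficient). The comparison asks which transcripts in ILC3s depend on Brg1, the ATPase of the BAF chromatin remodeling complex that is encoded by Smarca4. The controls were Thy1.2 Rag1-/- Smarca4 f/f, and the Brg1-deficient donors were Thy1.1 Thy1.2 Rag1-/- Smarca4 f/f with a Cre transgene, so both groups lacked Rag1 and carried the floxed Smarca4 alleles. Equal numbers of bone marrow cells of both donors were given together to sublethally irradiated Rag2-/- Il2rg-/- hosts, which lack T, B and innate lymphoid cells of their own. The ILC3s were sorted 6 to 7 weeks later by high Thy1.2 and low CD45, and Thy1.1 told the donors apart. Loss of Brg1, the Cre and the Thy1.1 allele cannot be told apart in this design. The age of the donors, and whether both origins were sorted from the same hosts, were not given in the sources used here.

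ILCs are tissue lymphocytes without rearranged antigen receptors. Their progenitors depend on Nfil3, Tcf7 (which encodes TCF-1) and Tox, which act before the lineages part. Tbx21 (T-bet) is the factor of ILC1s, Eomes that of natural killer (NK) cells, and Gata3, Rora and Bcl11b act in ILC2s. In the gut some ILC3s turn on T-bet and, with it, the receptor NKp46 and interferon-γ, and c-Maf (Maf) is known to restrain this step.

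The promoters of Tbx21, Bcl11b and Eomes are shown because these 3 members had the lowest levels, with both libraries without Brg1 below both controls. Each runs 5′ to 3′ from 250 bases before to 50 bases after the start (RefSeq, GRCm38.p6), and capitals mark the TCF/LEF motif CTTTGAA.
Tbx21, chr11:97115282-97115581, minus strand: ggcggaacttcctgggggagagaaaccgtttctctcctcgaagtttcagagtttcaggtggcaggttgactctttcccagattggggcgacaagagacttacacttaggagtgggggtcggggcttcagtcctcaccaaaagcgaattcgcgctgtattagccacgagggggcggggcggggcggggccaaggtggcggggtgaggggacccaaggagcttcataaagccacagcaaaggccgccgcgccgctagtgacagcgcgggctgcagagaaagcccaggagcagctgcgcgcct
Bcl11b, chr12:108003365-108003664, minus strand: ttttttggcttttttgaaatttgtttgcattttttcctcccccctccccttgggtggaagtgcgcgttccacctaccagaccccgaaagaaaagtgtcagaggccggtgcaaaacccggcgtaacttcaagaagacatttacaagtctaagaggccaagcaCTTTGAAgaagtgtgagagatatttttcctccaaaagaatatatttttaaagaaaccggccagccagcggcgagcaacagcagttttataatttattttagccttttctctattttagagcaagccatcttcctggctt
Eomes, chr9:118477939-118478238, plus strand: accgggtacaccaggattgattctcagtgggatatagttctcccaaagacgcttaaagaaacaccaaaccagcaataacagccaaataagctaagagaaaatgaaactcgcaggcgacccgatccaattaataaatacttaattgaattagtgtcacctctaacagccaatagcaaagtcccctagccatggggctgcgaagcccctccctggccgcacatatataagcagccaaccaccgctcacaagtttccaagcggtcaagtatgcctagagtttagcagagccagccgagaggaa
RefSeq promoters were found for 7 of the 9 members, and 7 motifs were searched in them on both strands. The Bcl11b promoter held CTTTGAA at position -89 from the start, and 5.14% of all 32851 promoters held this motif. The ROR motif AGGTCA was in the Nfil3 promoter at -12 and in 1 of 2 Tcf7 promoters at -13, read on the opposite strand, and in 16.3% of all promoters. The Maf motif TGCTGA was in the Gata3 promoter, whose RefSeq start lies inside the annotated gene, at -90 and in 19.5% of all promoters. The Tbx21, Eomes and Rora promoters held none of the 7 motifs. The motifs found in no member were the T-box motif TCACACC, present in 3.98% of all promoters, and the GATA motif AGATAA, present in 11.2%. The same held for the Nfil3 motif TTACGT (2.72% of all promoters) and the E-box CACGTG (7.15%), which share the letters ACGT. The GC content was 62.0% for Tbx21, 43.0% for Bcl11b and 47.3% for Eomes, with a median of 52.7% over all promoters.

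The values are FPKM, fragments normalized to transcript length and to the total of the library, so levels of different genes can be compared per length. The libraries had nearly the same distribution of values above 1 FPKM, with 99.3% of 13693 ranks within 1% of each other. Lower values were less alike, with 30046 to 36929 genes above 0 per library. A change in the total amount of RNA could not be seen in these values. Depth is unknown, as FPKM were the only values used, and no counting interval is given. Smarca4, the deleted gene, was at 17.1 and 16.7 FPKM in control libraries 1 and 2, against 9.98 and 9.03 FPKM without Brg1, or 56.2% of the control mean. Log2 differences are Brg1-deficient minus Brg1-sufficient on log2(FPKM + 1), a scale that understates the differences of low genes. They were tested with limma over the 14739 genes with a mean above 1 FPKM in either group, with Benjamini-Hochberg adjustment. With 2 libraries per group, the smallest p that exact permutation allows for 1 gene is 0.333 (two-sided).

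The levels of the 9 factors spanned more than 3 orders of magnitude. Rora was the highest, at 698 ± 121 FPKM (SD, n = 2) in the controls. Nfil3 (236 ± 18.7 FPKM), Gata3 (147 ± 51.8 FPKM) and Tcf7 (128 ± 1.72 FPKM) came next. Tox was at 66.2 ± 7.51 FPKM and Maf at 23.6 ± 0.580 FPKM. Tbx21 (5.12 ± 1.29 FPKM), Bcl11b (1.44 ± 0.0707 FPKM) and Eomes (0.300 ± 0.156 FPKM) were the lowest (SD, n = 2 for each gene). Gata3 and Tcf7 were the only neighbors in this order whose control values overlapped. Without Brg1 the order differed only in that Tcf7 (149 ± 20.4 FPKM) stood above Gata3 (89.9 ± 21.7 FPKM; SD, n = 2 each), and no neighbors overlapped. The mRNAs of the 3 progenitor factors were thus all well above that of Tbx21 in the bulk RNA of these sorted ILC3s.

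**Figure D1:**
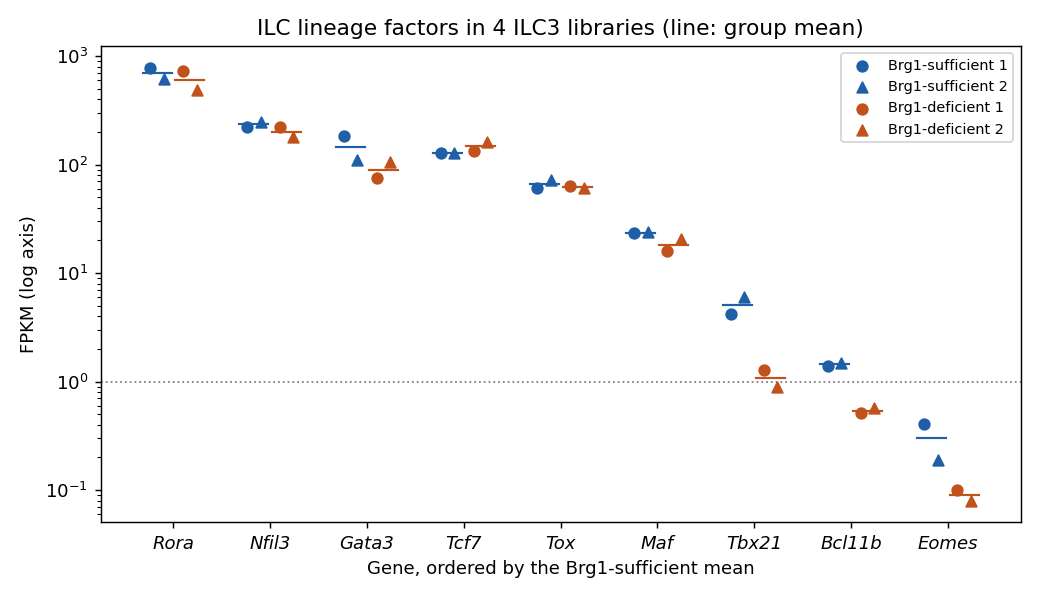
FPKM (log axis) of the 9 factors in each of the 4 libraries; points are libraries, short lines are group means, and the dotted line marks 1 FPKM. Tbx21, Bcl11b and Eomes lie at the low end with the groups apart, whereas the groups overlap for Rora and Tox.

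Tbx21 (chr11:97098071-97115331, minus strand, GRCm38) had the largest difference among the members. T-bet is the T-box factor that activates Ifng and is required for NKp46+ ILC3s. Its mRNA was at 4.21 and 6.04 FPKM in control libraries 1 and 2, against 1.28 and 0.900 FPKM without Brg1. Both libraries without Brg1 were below both controls, and their mean was 21.3% of the control mean. The log2 difference was -1.54 (SE 0.287, 95% interval -2.26 to -0.82), with an unadjusted p of 0.00239 and an adjusted p of 0.119 in limma. Tbx21 therefore did not pass an adjusted p of 0.05. Ranked among all genes tested, Tbx21 was at percentiles 38.3 and 45.5 in the controls and at percentiles 14.9 and 9.78 without Brg1. In bulk RNA, fewer cells with T-bet and less Tbx21 mRNA per cell cannot be told apart.

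Ncr1 encodes NKp46, which marks the T-bet-expressing ILC3s. It was at 31.3 and 35.5 FPKM in the controls, compared with 5.37 and 6.02 FPKM in the absence of Brg1 (log2 difference -2.36, SE 0.170, adjusted p = 0.0330). The ratio of Ncr1 to Tbx21 within a library was 7.44 and 5.88 in the controls and 4.2 and 6.69 without Brg1, so these ratios overlapped between groups.

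Eomes (chr9:118478212-118486132, plus strand), the T-box factor of NK cells, was listed at 0.410 and 0.190 FPKM in control libraries 1 and 2, against 0.10 and 0.0800 FPKM without Brg1. The groups did not overlap, but both means were below the 1 FPKM needed for testing, so no change is reported. The other 13 T-box genes left untested were at 0.68 FPKM or less in every library. Mga, a repressor with a T-box, was at 20.6 and 15.8 FPKM in the controls, compared with 13.2 and 14.5 FPKM in the absence of Brg1 (log2 difference -0.36, SE 0.192, adjusted p = 0.519). Tbx6, a T-box factor of the embryonic mesoderm, was at 0.460 and 0.40 FPKM in control libraries 1 and 2, against 0.920 and 1.55 FPKM without Brg1 (adjusted p = 0.563). Tbx21 and Mga were the only T-box genes with a control mean above 1 FPKM.

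Gata3 (chr2:9857078-9890034, minus strand), a zinc finger factor that is highest in ILC2s and also needed by ILC3s, was at 183 and 110 FPKM in the controls, compared with 74.5 and 105 FPKM in the absence of Brg1. The groups stood apart by a narrow margin, since control 2 lay next to Brg1-deficient library 2, and the controls themselves differed by 0.73 on the log2 scale. The difference did not pass the test (log2 difference -0.68, SE 0.297, 95% interval -1.42 to 0.07, adjusted p = 0.441). Without control library 1 it was -0.31, and without Brg1-deficient library 1 it was -0.43.

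Rora (chr9:68653786-69388246, plus strand), a nuclear receptor needed for ILC2 development and also expressed by ILC3s, was at 784 and 613 FPKM in control libraries 1 and 2, against 723 and 486 FPKM without Brg1. The groups overlapped (log2 difference -0.22, SE 0.240, 95% interval -0.83 to 0.38, adjusted p = 0.732). This interval includes differences in both directions. Rora exceeded Gata3 in each library, with ratios of 4.28 and 5.57 in the controls and 9.70 and 4.62 without Brg1, which overlapped.

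Bcl11b (chr12:107910403-108003602, minus strand), a zinc finger factor of T cell commitment and of ILC2 identity, was at 1.39 and 1.49 FPKM in the controls, compared with 0.510 and 0.570 FPKM in the absence of Brg1. The replicates of each group lay close together, and the mean without Brg1 was 37.5% of the control mean. The difference did not pass the test (log2 difference -0.66, SE 0.337, 95% interval -1.51 to 0.18, adjusted p = 0.50). It was -1.27 on log2(FPKM + 0.1), and in limma without a trend of variance on level its unadjusted p went from 0.101 to 0.0146, with an adjusted p of 0.257.

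None of the 3 progenitor factors passed the test. Nfil3 (chr13:52967209-52981073, minus strand), a basic leucine zipper factor required by the earliest ILC progenitors, was at 222 and 249 FPKM in control libraries 1 and 2, against 221 and 181 FPKM without Brg1. The nearest libraries of the groups, at 222.43 and 221.39 FPKM, were almost equal (log2 difference -0.23, SE 0.160, 95% interval -0.64 to 0.17, adjusted p = 0.610). Tcf7 (chr11:52252371-52283014, minus strand), whose product TCF-1 is a high mobility group factor, was at 129 and 127 FPKM in the controls, compared with 134 and 163 FPKM in the absence of Brg1. It was the only member with both Brg1-deficient libraries above both controls (log2 difference 0.21, SE 0.151, 95% interval -0.17 to 0.59, adjusted p = 0.620). Tox (chr4:6686353-6991557, minus strand), another high mobility group factor of early ILCs, was at 60.9 and 71.5 FPKM in control libraries 1 and 2, against 63.1 and 60.3 FPKM without Brg1. The groups overlapped for Tox (log2 difference -0.10, SE 0.149, 95% interval -0.47 to 0.28, adjusted p = 0.819).

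Maf (chr8:115682942-115707794, minus strand), the basic leucine zipper factor that restrains the T-bet program in ILC3s, was at 23.2 and 24.02 FPKM in the controls, compared with 15.9 and 20.4 FPKM in the absence of Brg1. The controls were close together, and both libraries without Brg1 were below them. The difference did not pass the test (log2 difference -0.37, SE 0.180, 95% interval -0.82 to 0.08, adjusted p = 0.485), and the libraries without Brg1 differed from each other by 0.34 on the log2 scale.

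Of the 9 members, 8 were tested. At an adjusted p under 0.05 in limma, 0 were lower and 0 higher, where 0.224% of all genes tested were lower and 0.0814% higher (0.305% in either direction). At an unadjusted p under 0.05, 1 was lower (Tbx21) and 0 were higher, beside 6.47% and 6.12% of all genes (12.6% in either direction). Tbx21 also met the criteria of the gene list that the study used for gene ontology, as 4.37% of all genes did in the lower and 3.85% in the higher direction. Its control mean lay just above the 5 FPKM these criteria require, and without control 2 the mean was under this limit. Without Brg1-deficient library 1 or 2 its adjusted p of 0.533 or 0.574 exceeded the 0.4 allowed, while its log2 difference was -1.67 or -1.41. In 6 of the 8 members the groups did not overlap, with 5 lower and 1 higher, where 44.6% of all genes tested did not overlap (20.2% lower and 24.4% higher). The median log2 difference was -0.30 over the 8 members and 0.03 over all genes tested.

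**Figure D2:**
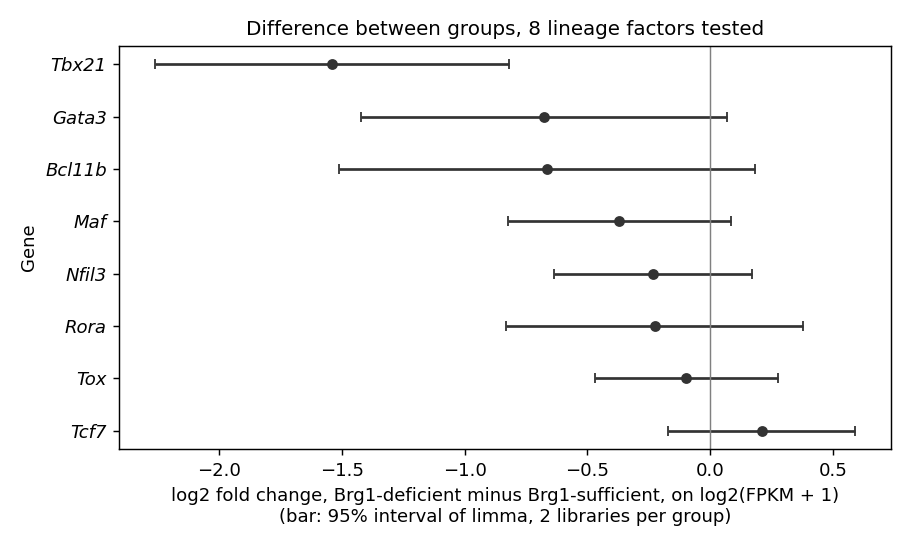
Log2 difference, Brg1-deficient minus Brg1-sufficient on log2(FPKM + 1), of the 8 factors tested; points are estimates and bars are 95% intervals from limma with 2 libraries per group. The interval of Tbx21 (-2.26 to -0.82) lies below 0 and the other 7 include 0.

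Sums of cell type markers are given beside Tbx21, Gata3, Bcl11b and Eomes, of which none passed an adjusted p of 0.05. The other 5 ILC1 markers summed to 78.7 and 105 FPKM in the controls and 32.0 and 36.9 FPKM without Brg1, and of all 6, 4 were lower at an unadjusted p under 0.05 and 2 at an adjusted p under 0.05 (Ifng and Ncr1). Ifng and Ncr1 were the largest parts of the ILC1 sum in the controls, and ILC3s with T-bet also express them. The sum therefore cannot tell ILC1s from such ILC3s. The ILC1 marker Klrb1c overlapped, at 18.2 and 21.1 FPKM in control libraries 1 and 2, against 17.4 and 20.4 FPKM without Brg1. The other 6 ILC2 markers summed to 128 and 82.5 FPKM in the controls and 20.3 and 15.3 FPKM without Brg1. Each of the 6 ILC2 markers tested, Gata3 included, had both Brg1-deficient libraries below both controls, and 4 had an unadjusted p under 0.05 but 0 an adjusted p under 0.05. Control 1 was the higher control for this sum and for Gata3. Without Brg1, library 1 was the higher for the sum (20.3 against 15.3 FPKM) but the lower for Gata3 (74.5 against 105 FPKM). Most of the sum without Brg1 was Areg (16.4 and 11.3 FPKM), and each other marker in it was at 2.19 FPKM or less. The order of the sum in these libraries was therefore mostly that of Areg. In the controls Areg had control 1 as the lower, at 26.7 and 58.7 FPKM in control libraries 1 and 2. Among the defining ILC2 genes, Il13 was at 1.04 FPKM or less and listed at 0 in both libraries without Brg1. Il5 was at 24.8 and 1.64 FPKM in control libraries 1 and 2, against 0.32 and 0.06 FPKM without Brg1 (log2 difference -2.80, adjusted p = 0.367 in limma). The part of these cells in the Tbx21 and Gata3 values was not tested.

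Beside Bcl11b, the 10 T cell markers summed to 389 and 237 FPKM in the controls and 95.4 and 93.4 FPKM without Brg1. Of the 8 tested, 5 were lower at an unadjusted p under 0.05 and 1 at an adjusted p under 0.05 (Trbc1, a constant region of the T cell receptor). The largest parts of the control sums were Trbc2 (186 and 146 FPKM in libraries 1 and 2) and Trbc1 (110 and 62.5 FPKM). Trac (33.6 and 4.86 FPKM in the controls, 5.08 and 12.5 FPKM without Brg1) overlapped between groups. Cd8b1 (4.38 and 0.58 FPKM in the controls, 0.74 and 1.94 FPKM without Brg1) overlapped as well. Cd3g was at 37.2 and 10.7 FPKM in control libraries 1 and 2, against 1.21 and 5.04 FPKM without Brg1, whereas Cd5 was at 0.30 FPKM or less. The Rag1-/- donors and Rag2-/- Il2rg-/- hosts cannot rearrange antigen receptor genes and so make no mature T cells, and the part of T cell transcripts in the Bcl11b values was not tested. Beside Eomes, the mature NK cell markers summed to 184 and 304 FPKM in the controls and 467 and 253 FPKM without Brg1, of which Gzma was the largest part without Brg1 (50.8 and 103 FPKM in the controls, 397 and 218 FPKM without Brg1). With Gzma left out, which was done after its values were seen, the other 8 summed to 133 and 201 FPKM in the controls and 70.3 and 35.5 FPKM without Brg1. That sum was mostly Gzmb, Ncr1 and Klrg1. Gzmb overlapped between groups (51.5 and 149 FPKM in the controls, 62.0 and 25.7 FPKM without Brg1). Ncr1 is also among the ILC1 markers, and Klrg1 among the ILC2 markers. Of the 7 NK markers tested, 3 were lower and 1 higher at an unadjusted p under 0.05, and 1 (Ncr1) was lower at an adjusted p under 0.05. The NK receptors Klra4 and Klra8 were at 0.73 FPKM or less, and the part of NK cells in the Eomes values was not tested. Of the B and plasma cell markers 1 of 6 was tested, Cd79b, which fell (log2 difference -2.36, adjusted p = 0.0386), and the 5 others were below the limit for testing. Myeloid markers, mostly Lyz2, summed to 150.1 and 333 FPKM in the controls and 110.2 and 297 FPKM without Brg1, and this sum followed the library number. Of the 9 myeloid markers tested, 3 were lower and 1 higher in both Brg1-deficient libraries than in either control, and 5 overlapped. Of all genes tested, 44.6% did not overlap. Mast cell and basophil markers summed to 11.4 and 9.52 FPKM in the controls and 6.48 and 6.93 FPKM without Brg1. Epithelial markers summed to 3.59 and 3.43 FPKM in the controls and 4.45 and 4.10 FPKM without Brg1, with Krt8 at an unadjusted p of 0.00737 and an adjusted p of 0.187. Both of these sums were apart between groups. Stromal and endothelial markers, mostly Pecam1, summed to between 66.1 and 91.1 FPKM. Of the ILC3 markers, Il22, Il23r, Il7r, Kit and Ltb were each above 200 FPKM in every library. Ahr, of the same list, was much lower, at 6.94 to 10.6 FPKM.

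**Figure D3:**
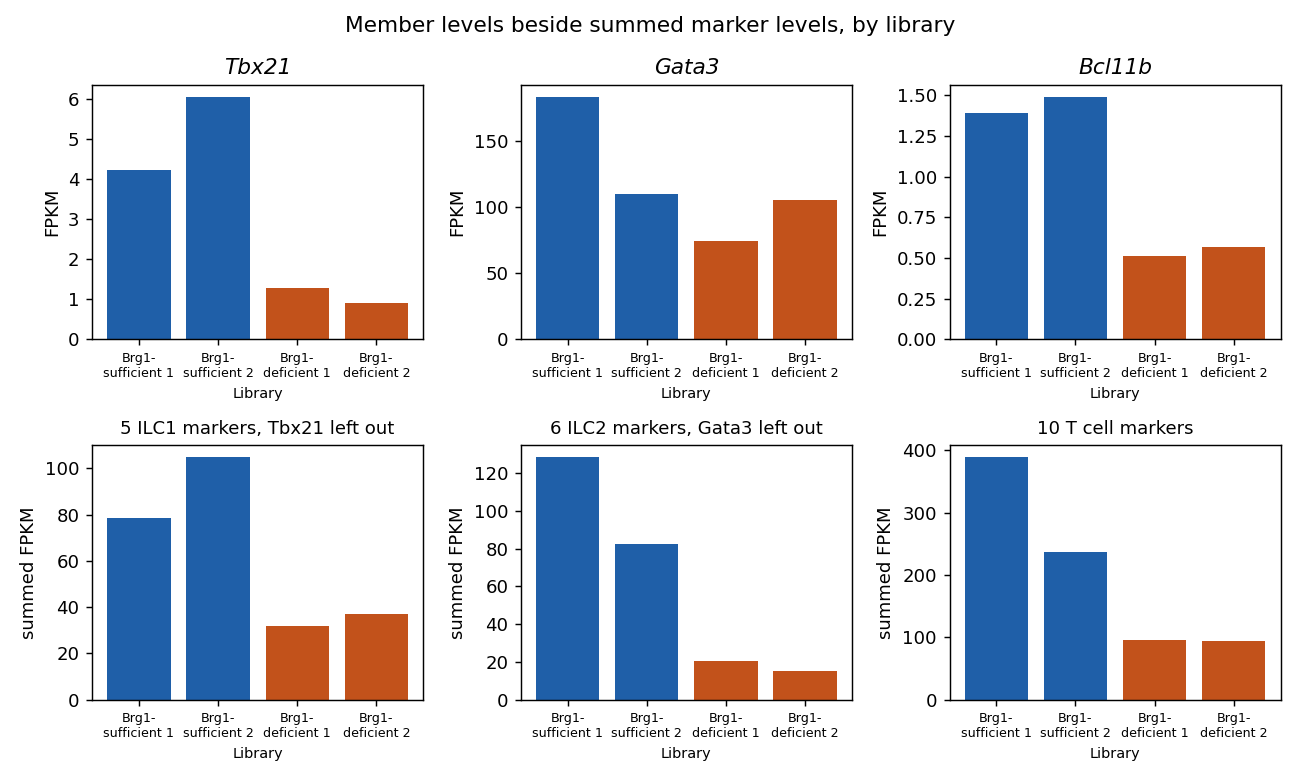
FPKM of Tbx21, Gata3 and Bcl11b (upper bars) above the summed FPKM of ILC1 markers without Tbx21, ILC2 markers without Gata3, and T cell markers (lower bars), 1 bar per library. The 3 marker sums are lower in both Brg1-deficient libraries than in either control, and for Gata3 the nearest libraries are at 110 and 105 FPKM.

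Among 20 other transcription factors of ILCs, 17 were tested, and limma called 0 lower and 0 higher by adjusted p. There were 6 lower and 3 higher at an unadjusted p under 0.05, and the median log2 difference was -0.24. Zeb2, a zinc finger repressor that acts with T-bet in maturing NK and T cells, was at 22.5 and 13.5 FPKM in control libraries 1 and 2, against 4.19 and 3.21 FPKM without Brg1 (log2 difference -1.98, SE 0.288, adjusted p = 0.0860). Hhex, a homeobox factor, was at 20.2 and 24.02 FPKM in the controls, compared with 9.28 and 14.5 FPKM in the absence of Brg1 (log2 difference -0.87, SE 0.247, adjusted p = 0.255). Zeb2 and Hhex were lower in both Brg1-deficient libraries than in either control. Id2, the inhibitor of E proteins that ILCs need, was at 1400.5 and 1302 FPKM in control libraries 1 and 2, against 1002 and 1243 FPKM without Brg1 (adjusted p = 0.566). Ahr, a ligand-activated factor needed by gut ILC3s, overlapped between groups (log2 difference -0.24, adjusted p = 0.688).

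**Figure D4:**
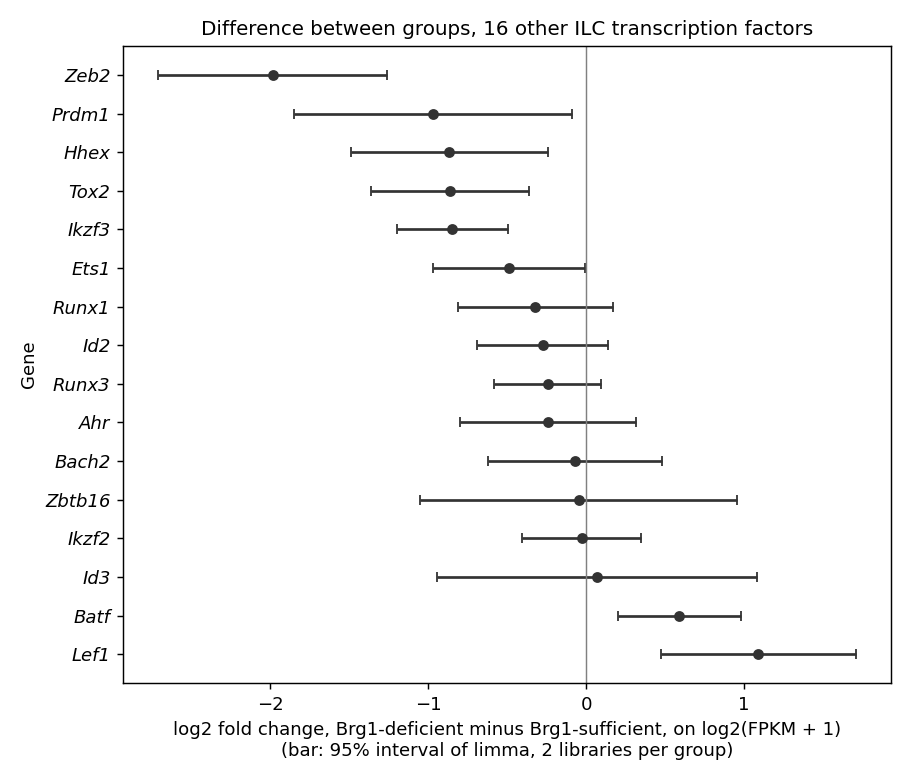
Log2 difference, Brg1-deficient minus Brg1-sufficient on log2(FPKM + 1), of 16 of the 17 other ILC transcription factors tested; points are estimates and bars are 95% intervals from limma with 2 libraries per group. Zeb2 has the lowest estimate (-1.98) and Lef1 the highest (1.09).

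In the families of the members, 38 further genes were listed, of which 14 were tested and 24 were at 0.72 FPKM or less. At an adjusted p under 0.05 in limma, 0 of the 14 were lower and 0 higher. At an unadjusted p under 0.05, 1 was lower (Tox2) and 4 were higher, among them Lef1, Dbp and Tef, with a median log2 difference of 0.18.

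Lef1, which binds the same motif as TCF-1, was at 5.21 and 5.87 FPKM in control libraries 1 and 2, against 15.8 and 10.5 FPKM without Brg1 (log2 difference 1.09, SE 0.245, adjusted p = 0.174). Tcf7 exceeded Lef1 in each library, with ratios of 24.8 and 21.6 in the controls and 8.48 and 15.6 without Brg1. Tcf7l2, the other TCF gene tested, was at 2.33 and 1.31 FPKM in the controls, compared with 0.760 and 1.32 FPKM in the absence of Brg1, which overlapped. Tox2 was at 29.4 and 40.5 FPKM in control libraries 1 and 2, against 18.1 and 19.1 FPKM without Brg1 (log2 difference -0.86, SE 0.199, adjusted p = 0.181). Tox exceeded Tox2 with ratios of 2.07 and 1.77 in the controls and 3.49 and 3.16 without Brg1, so Tox made up more of the pair where Brg1 was lost. Tox4 was at 77.6 and 62.8 FPKM in the controls, compared with 66.7 and 69.3 FPKM in the absence of Brg1, and the groups overlapped. Whether Lef1 differs from Tcf7, or Tox2 from Tox, in its response was not tested.

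Nfil3 shares its binding sites with the activators Dbp, Tef and Hlf. Dbp was at 13.3 and 14.0 FPKM in control libraries 1 and 2, against 20.5 and 18.4 FPKM without Brg1 (log2 difference 0.48, SE 0.159, adjusted p = 0.321). Tef was at 2.47 and 2.96 FPKM in the controls, compared with 4.14 and 5.29 FPKM in the absence of Brg1 (log2 difference 0.62, SE 0.240, adjusted p = 0.385). Both were higher in both Brg1-deficient libraries, Hlf overlapped, and Nfil3 was the most abundant of the 4 in every library. Of the Maf relatives, the small Mafs Mafk (75.9 and 74.8 FPKM in control libraries 1 and 2, against 104 and 78.6 FPKM without Brg1), Maff (57.3 and 32.9 FPKM, against 31.4 and 31.4 FPKM) and Mafg (14.4 and 13.3 FPKM, against 14.6 and 17.1 FPKM) had adjusted p of 0.608, 0.569 and 0.696. Gata3 and Bcl11b had no relative tested.

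**Figure D5:**
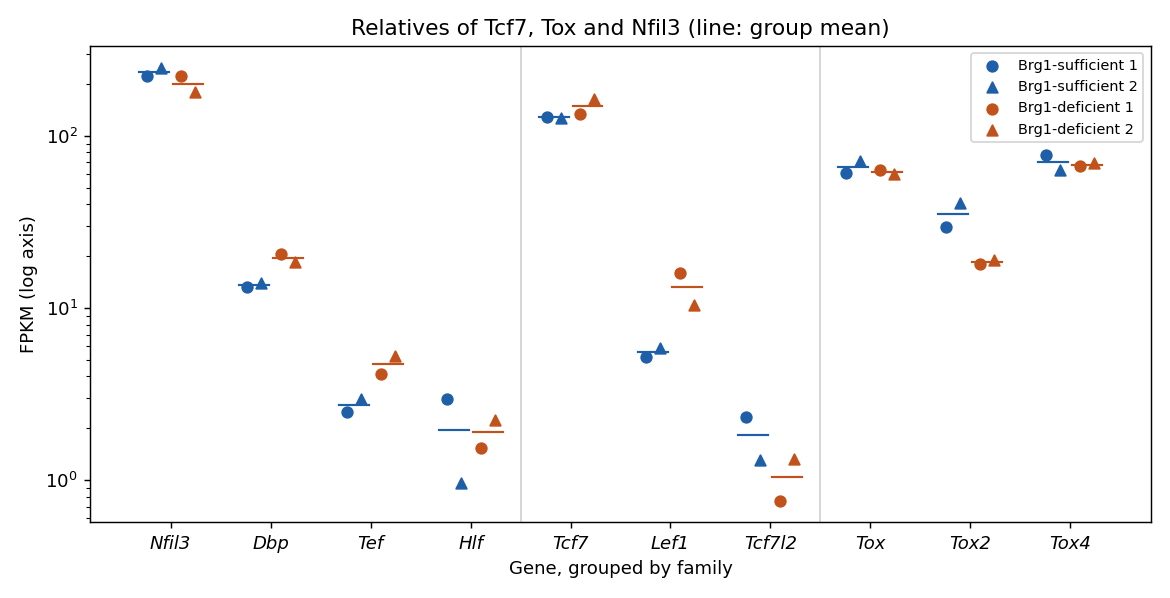
FPKM (log axis) of Nfil3, Tcf7, Tox and their tested relatives in each library; points are libraries and short lines are group means. Lef1, Dbp and Tef are higher and Tox2 is lower in both Brg1-deficient libraries.

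Genes that accompany the lineage factors were counted in 3 lists. Of 20 T-bet-associated genes tested, 2 fell at an adjusted p under 0.05 in limma, Ncr1 and Ifng, and 0 rose. Ifng, which encodes interferon-γ, was at 22.8 and 37.3 FPKM in the controls, compared with 3.42 and 3.22 FPKM in the absence of Brg1 (log2 difference -2.80, SE 0.267, adjusted p = 0.0386). At an unadjusted p under 0.05, 5 genes of the list were lower, among them the chemokine gene Xcl1 (log2 difference -1.92, adjusted p = 0.305) and the receptor gene Il2rb (-0.81, adjusted p = 0.198). In the other direction stood 1 gene, Klrk1 (0.70, adjusted p = 0.143), and the median of the list was -0.68.

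Of 15 ILC2 genes tested, 0 passed an adjusted p under 0.05 in limma. With no adjustment, 9 were lower and 2 higher at a p under 0.05, Hpgds (2.08) and Nmur1 (1.37), and the median was -1.47. Calca was at 113 and 15.9 FPKM in control libraries 1 and 2, against 0.880 and 0.580 FPKM without Brg1 (log2 difference -4.67, SE 0.859, adjusted p = 0.116). Ccr8 (-4.17), Klrg1 (-2.97), Il17rb (-2.93) and Il4 (-2.92) had the next differences, and in each of these 5 control 1 was above control 2, as it was for Gata3. Other genes of the list had the opposite order in the controls, among them Areg, Hpgds (2.31 and 6.61 FPKM) and Nmur1 (8.24 and 9.88 FPKM).

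Of 18 ILC3 genes tested, 1 rose (Il17f) and 0 fell at an adjusted p under 0.05. Il17f was at 555 and 421 FPKM in the controls, compared with 2279 and 1852 FPKM in the absence of Brg1 (log2 difference 2.08, SE 0.199, adjusted p = 0.0386). At an unadjusted p under 0.05, 5 were lower, including Ccr6 (-0.96), Nrp1 (-0.92) and Ltb (-0.79), and 3 were higher, with a median of 0.05. The calls of Ifng, Ncr1 and Il17f by adjusted p were lost without any 1 library, with no filter on low FPKM and without the trend in limma, settings in which limma called 0 of all genes tested.

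The genes most like Tbx21 across the 4 libraries were found by the root mean square difference of centered log2(FPKM + 1). Kbtbd11 was the nearest, at a distance of 0.028, with 5.40 and 7.79 FPKM in control libraries 1 and 2, against 1.84 and 1.46 FPKM without Brg1 (adjusted p = 0.110). C920009B18Rik (0.060), Foxs1 (0.105), Gm23428 (0.110) and Fut4 (0.118) came next. Foxs1, a forkhead factor, was the most abundant of them, with 47.6 and 53.4 FPKM in the controls, compared with 18.2 and 16.1 FPKM in the absence of Brg1 (adjusted p = 0.0447). With 4 libraries in 2 groups, this likeness is a description without a test.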

How the data were processed

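RNA-seq libraries of sorted small intestinal ILC3s, 2 Brg1-sufficient and 2 Brg1-deficient, were grouped by the labels. The authors mapped reads to GRCm38 with STAR 2.5, quantified genes with RSEM 1.2 and deposited 1 FPKM value per gene and library. Their distributions above 1 FPKM are nearly equal, as after quantile normalization, a step not given in the sources used here. The study tested counts, which were not used here.

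Differences were tested with limma 3.58.1 in R 4.3.3 (lmFit, eBayes with a trend) on log2(FPKM + 1), over genes with a mean above 1 FPKM in either group. The study called genes by an adjusted p under 0.05 and a mean above 1 FPKM in either group. The criteria of its list for gene ontology were p under 0.05, adjusted p under 0.4, a mean above 5 FPKM in either group and a log2 ratio of means beyond 0.5, here without a limit to protein-coding genes. p-values measure the spread between libraries, which the study calls biological duplicates. The members and gene lists were chosen with earlier results of these data known.

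Some items that the rule for named genes covers are not reported here. Named were the 9 members, Id2, Ahr, family relatives above 1 FPKM, and from each list the genes with an adjusted p under 0.05 and up to 5 with the largest difference among those with an unadjusted p under 0.05, no overlap and a mean above 5 FPKM. For the member with the largest difference, the 5 most similar genes were named, and for each member the nearest and overlapping genes were examined. Other genes, in counts of 5 or fewer or as markers, were named after their values were seen. Gene positions came from a GENCODE annotation of GRCm38. Scripts were tested on simulated data. The alternatives were a pseudocount of 0.1, no filter, a filter at 5 FPKM, no trend, quantile normalization, the replicate number as a block, and leaving out each library.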

Additional observations from a re-analysis of the deposited data

How the results depend on the processing

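None of the members tested passed an adjusted p under 0.05 in any of the 10 alternatives, but in 6 of these (no filter, no trend, and without each library) 0 of all genes tested passed, so no member could be called. The adjusted p of Tbx21 ranged from 0.0536, with the replicate block, to 0.574, without Brg1-deficient library 2, and its log2 difference from -2.13 to -1.32. Leaving out 1 library assumes that the lone library of a group varies like the others. The log2 difference of Rora then ranged from -0.51 to 0.06, being 0.0604 without Brg1-deficient library 2, and that of Tox from -0.21 to 0.02, being 0.0181 without Brg1-sufficient library 2.

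At an unadjusted p under 0.05, 2 members were lower with no filter and without the trend (Tbx21 and Bcl11b), 2 with the replicate block (Tbx21 and Gata3), and 1 to 2 without 1 library. By the criteria of the gene ontology list, 2 were lower with the replicate block and 0 to 1 without 1 library. The count was 0 without Brg1-sufficient library 2 or either Brg1-deficient library.

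With no filter, without the trend, and without any 1 library, 0 T-bet-associated genes were lower and 0 ILC3 genes higher at an adjusted p under 0.05, as were 0 of all genes tested (33 lower and 12 higher as reported). With the filter at 5 FPKM, which leaves Bcl11b untested and calls 73 genes lower and 41 higher in all, 1 other factor was lower (Zeb2) and 1 ILC2 gene higher (Nmur1). With the replicate block, which calls 248 genes lower and 150 higher in all, 2 other factors were lower (Zeb2 and Ikzf3) and 1 higher, 1 relative was higher, 6 ILC2 genes were lower and 2 higher, and 2 ILC3 genes were lower and 2 higher. Nothing in the labels pairs the libraries, and the deviations of same-numbered ones had a correlation of -0.00039 over all genes tested. With 2 libraries per group this value cannot show whether same-numbered libraries shared hosts. The summed myeloid markers, mostly Lyz2, did go with the number. What made these counts shift was not tested.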

Other observations

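Several members overlap other annotated genes, and reads of either strand may have been counted together. Maf overlaps the antisense gene Gm15655, which was at 2.20 and 2.32 FPKM in control libraries 1 and 2, against 1.08 and 0.620 FPKM without Brg1 (log2 difference -0.83, unadjusted p = 0.0427, adjusted p = 0.375 in limma). Rora overlaps the antisense gene Gm15511, at 10.9 and 10.2 FPKM in the controls, compared with 10.1 and 7.44 FPKM in the absence of Brg1. Of 3 genes that overlap Gata3, only 9230102O04Rik was tested, at 1.83 and 0.290 FPKM in control libraries 1 and 2, against 0 and 0.0700 FPKM without Brg1 (adjusted p = 0.569), with control 1 the higher control as for Gata3. Eomes overlaps the antisense gene Gm33460, which was listed at 0 in both controls and at 0.590 and 0.380 FPKM without Brg1. Tbx21, Nfil3 and Bcl11b overlap no other annotated gene.

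Of the nearest tested genes on each side of the 9 members, 2 had an unadjusted p under 0.05 in limma, where 12.6% of all genes tested did. Celf2, which encodes an RNA-binding protein and lies 2347515 bases from Gata3, was at 201 and 183 FPKM in the controls, compared with 134 and 139.8 FPKM in the absence of Brg1 (log2 difference -0.49, adjusted p = 0.237). Skp1a, which encodes a ubiquitin ligase subunit and lies 5513 bases from Tcf7, was at 189 and 243 FPKM in control libraries 1 and 2, against 307 and 350.4 FPKM without Brg1 (log2 difference 0.61, adjusted p = 0.256). Beside Tbx21, Osbpl7, 29167 bases away, was at 3.84 and 7.83 FPKM in the controls, compared with 7.42 and 9.32 FPKM in the absence of Brg1 (adjusted p = 0.597).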
